A study of Mus musculus with 24 samples.

Results

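Around Atad3a on mouse chromosome 4, 54 genes of the deposited count table were examined whose start lies within 1 Mb of the Atad3a start, out of 21959 genes in all. The region was picked with earlier results of these data known, and within it the genes were taken by position, without use of an expression value. Atad3a itself is one of them and the other 53 are called neighbours here. The question was whether the neighbours differ between ATAD3A knock-in and wild-type aortas, at which distance from Atad3a, and whether they do so with and without β-aminopropionitrile (BAPN). BAPN blocks lysyl oxidase, the enzyme that cross-links collagen and elastin, and is given to young mice to bring on aortic aneurysm and dissection.

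Polyadenylated RNA was sequenced from aortas of male mice, taken from the ascending part down to the abdominal bifurcation. There were 6 wild-type libraries on regular drinking water (WT), 7 wild-type libraries on BAPN (WT-BAPN), 5 ATAD3A knock-in libraries on regular water (KI) and 6 ATAD3A knock-in libraries on BAPN (KI-BAPN). The dose of BAPN was 0.5% (w/v) in what they drank, begun at an age of 3 weeks and kept up over 28 days. The labels do not say how the knock-in allele was built, where in the genome it sits, which promoter drives it, in which cells it is active, or which strain the mice are. They give no litter, batch or collection day either. Each library is listed as a separate sample. Nothing in the labels says that libraries were or were not pooled from several animals, so p-values measure the spread between these libraries.

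Genes that lie side by side on a chromosome can share regulatory DNA, and a gene's promoter can be reached by an enhancer placed near it. An allele inserted or rebuilt at a locus can for that reason alter transcription of the genes around it, and transcripts that run past the end of a strongly expressed gene can enter the next one. When an engineered allele has been bred from one strain into another, the chromosome stretch around it also tends to keep the variants of the first strain. The distal end of mouse chromosome 4 that carries Atad3a is dense in genes, many of them active in most cell types. The Atad3a product is an ATPase anchored in the inner membrane of mitochondria, where it takes part in the upkeep of cristae and nucleoids.

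Of the 53 neighbours, 44 had enough counts to be tested, 20 at lower and 24 at higher coordinates than Atad3a. The 9 others were Ttc34, Mmel1, Hes5, Gabrd, Ankrd65, Ttll10, Rnf223, Samd11 and Vmn2r129. Most of these are genes of other tissues, such as Gabrd, a subunit of the GABA receptor of neurons, and Vmn2r129, a pheromone receptor of the vomeronasal organ. Vmn2r129 had 0 counts in all libraries, and the highest count of any library was 69 in Ttc34, 59 in Ttll10, 31 in Ankrd65 and 18 in Samd11. These 9 genes were left out of the main fit. A fit with no filter took in all of them but Vmn2r129 and called none between genotypes. Counts this low leave little to say about a genotype difference in them. Levels are given below as CPM (counts scaled to a common library total with TMM factors), and differences as log2 differences fitted by edgeR over all 14216 genes tested. A gene is called when its adjusted p is under 0.05.

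The libraries held 13127645 to 26490651 counts. Smooth muscle markers (6 of 6 tested) summed to 8587 to 55275 CPM, so smooth muscle RNA was present in every library. WT replicate 5 stood apart: its 5 tested skeletal muscle markers summed to 5310 CPM and its 5 airway epithelium markers to 17466 CPM, against at most 17.4 and 111 CPM in the other WT libraries. WT-BAPN replicate 7 and KI-BAPN replicate 3 also stood apart in several genes of the region. A length slope was computed for each library as the change of its log2 CPM, relative to the mean over libraries, per doubling of gene length. It ran from -0.228 in KI-BAPN replicate 3 to 0.109 in WT-BAPN replicate 4, with group medians of 0.0043 in WT, 0.0555 in WT-BAPN, 0.0233 in KI and -0.0501 in KI-BAPN. In bulk tissue, fewer cells of a type and less RNA per cell cannot be told apart.

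Atad3a (ENSMUSG00000029036, minus strand) spans 155825098 to 155845550 on chromosome 4 in the deposited coordinates. Its level in WT ran from 30.2 over a median of 39.1 to 61.4 CPM, and in WT-BAPN from 24.9 over 32.9 to 44.8 CPM. The 5 KI libraries had 802, 617, 1010, 1338 and 1629 CPM, and KI-BAPN ran from 231 over 555 to 1038 CPM. Every knock-in library was above every wild-type library. The log2 difference between KI and WT was 4.75 ± 0.33 (SE) on regular water and 4.14 ± 0.30 on BAPN. Since the labels do not say where the allele sits, these reads may or may not arise at this locus. Their origin was not tested. Per kilobase of gene length, Atad3a in WT was at 10.7 CPM per kb, near Ssu72 at 10.3 and Ube2j2 at 10.5. The highest of the neighbours on this scale were Mxra8 at 99.9, Rer1 at 77.4 and Gnb1 at 73.1, and the lowest were Tmem88b at 0.152 and Plch2 at 0.281.

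No neighbour was called between the genotypes. With edgeR, 0 of 44 neighbours passed on regular water, where 0.19% of all genes tested did. On BAPN 0 of 44 passed, beside 0.00703% of all genes, which was 1 gene, Atad3a itself. Averaged over both treatments, 0 of 44 passed, beside 0.211% of all genes. At an unadjusted p under 0.05 there were 6 neighbours on regular water (13.6%, 1 higher and 5 lower in KI), 8 on BAPN (18.2%, 4 higher and 4 lower) and 10 in the average (22.7%, 3 higher and 7 lower). The shares among all genes tested were 16.9%, 13.9% and 16.2%, so the neighbours stood near the background in each comparison. DESeq2 gave an adjusted p for 42 of the neighbours. It called 1 of these on regular water, Tmem52, beside 3.45% of all genes, and 0 on BAPN (0.136%) or in the average (2.63%). Limma voom called 0 on regular water (1.9%), 0 on BAPN (0.0211%) and 1 in the average, Pusl1 (2.14%).

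**Figure D1:**
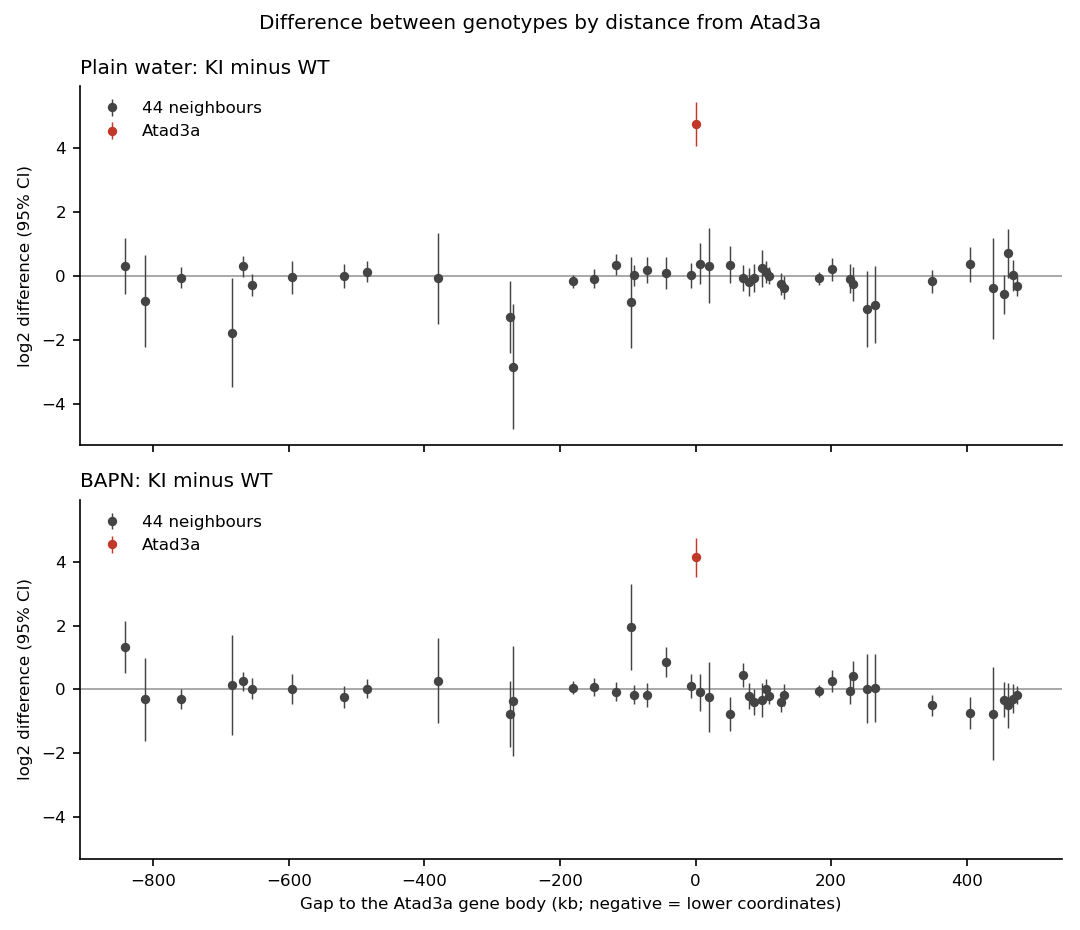
Log2 difference between knock-in and wild type with its 95% confidence interval for Atad3a and the 44 tested neighbours, against the gap in kb between gene bodies, on regular water (top) and on BAPN (bottom). Atad3a stands alone at 4.75 and 4.14, and no neighbour's interval reaches it.

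The intervals show what size of difference these libraries leave possible. On regular water the 95% confidence interval of 30 of the 44 neighbours lay within 1 log2 unit of 0, and on BAPN that of 29. These shares can be read beside 62.5% and 66.2% of all genes tested. Within 0.5 log2 units lay 12 and 13 neighbours, and 22 in the average over treatments. No neighbour's upper limit reached the difference of Atad3a in either treatment. The highest upper limit was 1.498 for Tmem88b on regular water and 3.30 for Gm10563 on BAPN, both of them genes at or below about 1 CPM in most libraries. The lowest lower limit was -4.79 for Tmem52 on regular water and -2.22 for Isg15 on BAPN, so for Tmem52 a lower level in knock-in as large as the rise of Atad3a lies within the interval.

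The neighbours closest to Atad3a were examined one by one. Ssu72, a phosphatase that acts on the tail of RNA polymerase II, ends 6762 bases from Atad3a on the side of lower coordinates. Its WT libraries ran from 22.4 over 27.9 to 30.8 CPM, and the KI libraries had 20.9, 19.6, 32.8, 32.2 and 34.1 CPM. On BAPN it ran from 21.3 over 23.6 to 46.2 CPM in wild type, the highest value being WT-BAPN replicate 7, and from 23.9 over 28.7 to 37.2 CPM in knock-in. The groups overlapped throughout. The difference was 0.01 ± 0.19 on regular water (-0.39 to 0.41) and 0.11 ± 0.18 on BAPN (-0.26 to 0.47), and both intervals were narrower than those of Vwa1 and Tmem88b.

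Vwa1, which encodes a matrix protein of basement membranes, lies 7056 bases beyond Atad3a on the other side. It had 17.9 to 71.6 CPM in WT around a median of 22.5, and 21.4, 41.3, 36.7, 44.0 and 62.5 CPM in KI. The top WT value belonged to replicate 5, and the other 5 WT libraries did not pass 35.5 CPM. The difference on regular water was 0.38 ± 0.30 (adjusted p = 0.548), and 0.81 without WT replicate 5 (adjusted p = 0.0739). On BAPN it was -0.09 ± 0.28, with 26.4 to 53.0 CPM in wild type and 26.4 to 43.8 CPM in knock-in. Tmem88b, a membrane protein gene, lies 20.5 kb away and was near the limit of detection, with a median of 0.327 CPM in WT, 0.747 in KI, 0.697 in WT-BAPN and 0.473 in KI-BAPN, all overlapping.

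Farther out, Mib2, a ubiquitin ligase of the Notch pathway at 71.4 kb, had medians of 60.1 CPM in WT and 69.8 in KI, and 68.5 in WT-BAPN and 57.9 in KI-BAPN. Its differences were 0.17 ± 0.20 and -0.18 ± 0.18. Aurkaip1, a protein of the small mitochondrial ribosomal subunit at 70.2 kb, had 66.2 to 79.2 CPM in WT and 61.4, 67.4, 63.1, 68.6 and 87.7 CPM in KI, a difference of -0.06 ± 0.19. On BAPN it ran from 46.2 over 49.6 to 97.1 CPM in wild type and from 51.6 over 74.1 to 124 CPM in knock-in, a difference of 0.46 ± 0.18 that was not called (adjusted p = 0.279). Cdk11b, a kinase that acts in splicing and lies 90.7 kb away, had 75.8 to 126 CPM in WT, 93.0 to 129 CPM in KI, 82.5 to 124 CPM in WT-BAPN and 61.8 to 111 CPM in KI-BAPN, with overlap in both treatments. Fndc10 and Ccnl2, the others of the 8 closest neighbours, are described with the BAPN comparison.

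**Figure D2:**
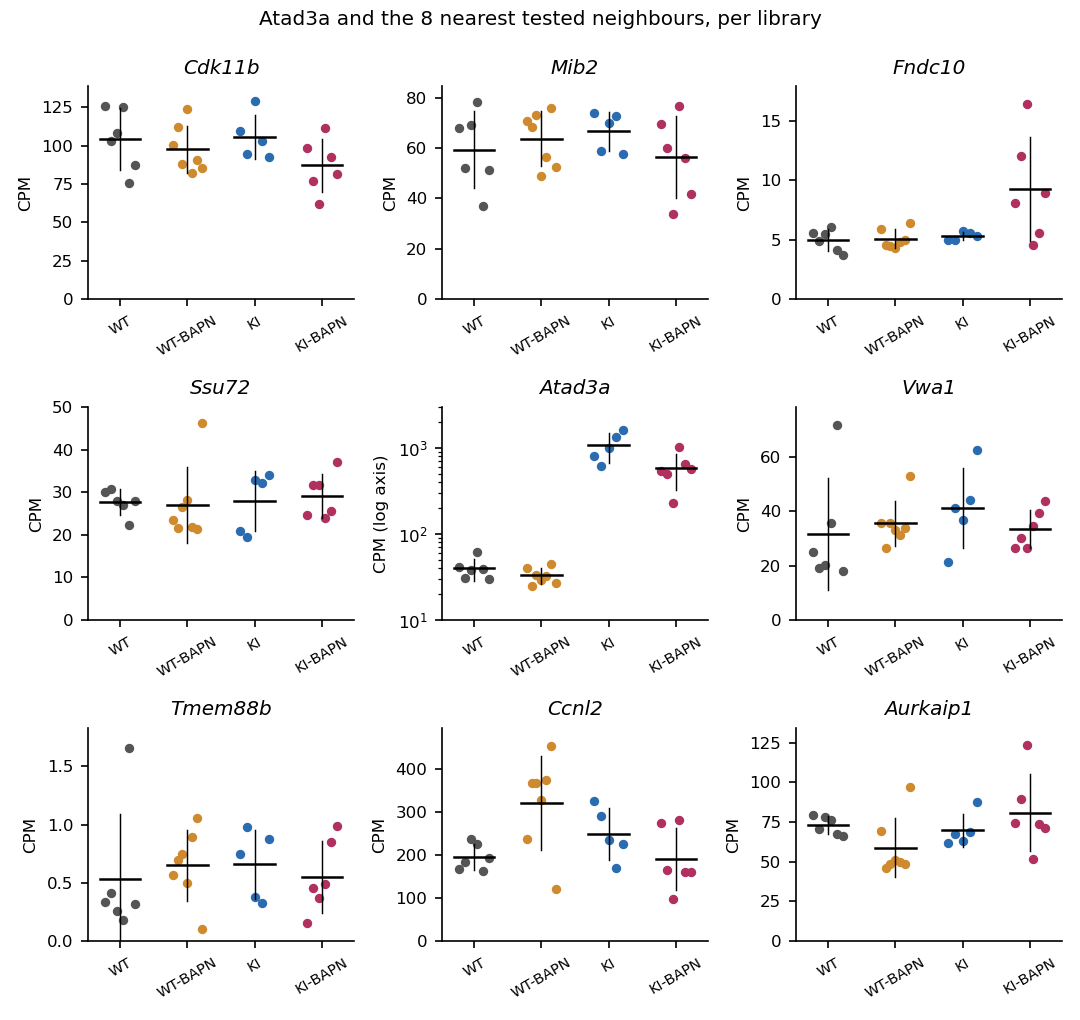
CPM of Atad3a (log axis) and of the 8 closest of the tested neighbours (linear axes from 0), 4 at lower and 4 at higher coordinates, with 1 point per library, the group mean as a horizontal bar and 1 SD as a vertical line (cut at 0). Only the Atad3a panel has groups that separate by genotype in both treatments.

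Differences were set beside the distance from Atad3a. Within 100 kb of Atad3a, the 12 tested neighbours had a median log2 difference of 0.056 on regular water and -0.17 on BAPN. At 100 to 250 kb (11 genes) the medians were -0.085 and -0.037, at 250 to 500 kb (13 genes) -0.31 and -0.31, and at 500 to 1000 kb (8 genes) -0.049 and 0.025. Over all 44 neighbours they were -0.065 and -0.13, over the 826 tested genes on the rest of chromosome 4 -0.031 and -0.026, and over all genes tested -0.0095 and -0.020. The median absolute difference was 0.242 on regular water and 0.249 on BAPN for the neighbours and 0.246 and 0.227 for all genes, so the sizes were close to those of genes elsewhere. By distance, from the closest bin outward, the median absolute difference was 0.179, 0.178, 0.395 and 0.297 on regular water and 0.285, 0.0852, 0.313 and 0.243 on BAPN. At an unadjusted p under 0.05 on BAPN stood 4 of the 12 genes within 100 kb, Aurkaip1, Ccnl2, Fndc10 and Gm10563, and 1 of 11, 2 of 13 and 1 of 8 in the bins farther out, beside 13.9% of all genes. On regular water there were 0 of 12, 2 of 11, 3 of 13 and 1 of 8, beside 16.9%. None of these genes was called, and the widest difference on BAPN, that of Gm10563, also lay within 100 kb. Across the 44 genes, Spearman's rho between the absolute difference and the gap was 0.183 on regular water, -0.022 on BAPN and 0.297 in the average, given as a description of genes that share the same libraries. Of the 13 genes at 250 to 500 kb, Tmem52, Cfap74, Tnfrsf4, Tnfrsf18, Prkcz and Isg15 had their highest WT value in replicate 5.

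The genotype differences of the neighbours on regular water and on BAPN showed no common order. These comparisons share no library. The sign was the same in both for 22 of 44 neighbours (50%), beside 49.7% of all genes tested. Pearson's r across the neighbours was 0.0050, and 0.0672 across all genes. On regular water all KI libraries lay below all WT libraries for 1 neighbour, Rer1, beside 2.38% of all genes whose groups did not overlap. On BAPN this held for 1 neighbour, Cfap74, beside 0.218%. No neighbour had groups apart in the same direction under both treatments, and 0.0141% of all genes did, Atad3a among them.

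**Figure D3:**
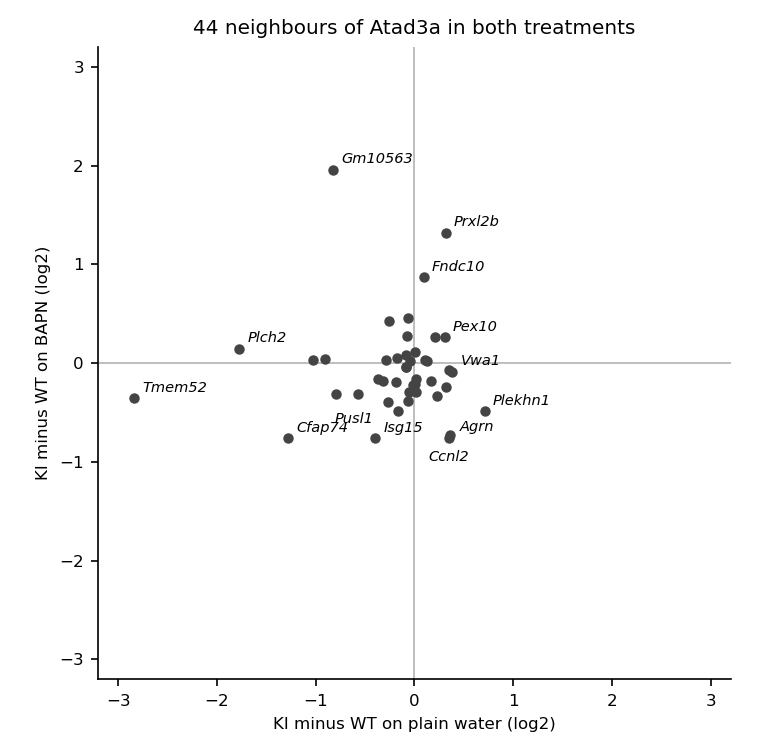
Log2 difference between knock-in and wild type on regular water (x axis) and on BAPN (y axis), 1 point per neighbour of Atad3a, 44 in all, with the genes discussed in the text named. The points scatter around 0 without a shared direction, and the widest values on each axis are those of different genes (Tmem52 at -2.84 on regular water, Gm10563 at 1.96 on BAPN).

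Rer1 returns proteins from the Golgi to the endoplasmic reticulum. It had 129 to 154 CPM in WT with a median of 141, and 119, 101, 117, 114 and 124 CPM in KI, a difference of -0.29 ± 0.17 (adjusted p = 0.390). On BAPN the difference was 0.03 ± 0.15, with 98.9 to 231 CPM in wild type and 105 to 162 CPM in knock-in. Cfap74, a protein of motile cilia, had 1.498 to 2.12 CPM in WT-BAPN and 0.791 to 1.38 CPM in KI-BAPN, a difference of -0.76 ± 0.50 (adjusted p = 0.503). Both genes thus had separate groups in a single treatment and did not pass the test.

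The neighbours were also sorted by role, as a description, and no test was run on a role group. Of 6 tested genes for RNA handling, 4 were higher and 2 lower in KI on regular water and 1 higher and 5 lower on BAPN, with medians of 0.0096 and -0.19. These were Ssu72, Ccnl2, Cdk11b, Ints11 of the Integrator complex, the pseudouridine synthase-like gene Pusl1 and Noc2l. Cdk11b had differences of 0.02 ± 0.16 and -0.16 ± 0.14, and Ints11, at 108 kb, 0.01 ± 0.14 and -0.21 ± 0.12. Of 7 genes of mitochondria, peroxisomes and metabolism, 3 were higher and 4 lower on regular water and 5 higher and 2 lower on BAPN, with medians of -0.057 and 0.085. Nadk, the kinase that makes NADP, stood at -0.09 ± 0.15 and 0.09 ± 0.14, and Pank4, a relative of the pantothenate kinases, at -0.06 ± 0.16 and -0.29 ± 0.15.

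Of 7 genes of the matrix, cell surface and secretory pathway, 3 were higher and 4 lower in both treatments, with medians of -0.085 and -0.037. Mxra8, an adhesion protein of the cell surface and the most abundant neighbour per kilobase, stood at -0.19 ± 0.21 and -0.20 ± 0.20. Sdf4, a calcium-binding protein of the Golgi lumen, was at -0.26 ± 0.25 and 0.42 ± 0.23. Of 7 signalling genes, 1 was higher and 6 lower on regular water and 3 higher and 4 lower on BAPN. Gnb1, a G protein beta subunit, had the narrowest interval of these, -0.18 ± 0.10 and 0.05 ± 0.10, and Ski, a repressor of TGF-beta signalling, was at -0.01 ± 0.18 and -0.23 ± 0.17. The 4 immune genes were Tnfrsf4, Tnfrsf14, Tnfrsf18 and Isg15, and all were lower in KI on regular water (median -0.85), where WT replicate 5 had the highest WT value of each. On BAPN 2 were higher and 2 lower (median -0.14).

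The largest differences on regular water, those of Tmem52 and Plch2, changed in size or direction with the libraries kept. Tmem52, a membrane protein gene 270 kb from Atad3a, had 0.394 to 7.09 CPM in WT with a median of 1.48, and 0.0393, 0.352, 0.188, 0.833 and 0.305 CPM in KI. The 2 highest WT values were replicates 5 and 6 (7.09 and 3.93 CPM), and the groups overlapped. Its difference was -2.84 ± 0.94 (adjusted p = 0.142), or -2.18 without WT replicate 5 (adjusted p = 0.177). Over 37 alternative settings the difference stayed negative, from -3.46 to -1.61, and DESeq2 called it. On BAPN it was -0.35 ± 0.83. Without WT replicate 5 and KI replicates 1, 2 and 5, the difference on regular water was -1.61 (adjusted p = 0.838). That fit kept only replicates 3 and 4 of KI. The KI libraries left out had sympathetic neuron marker sums of 93.2, 1348 and 194 CPM, beside 3.43 and 4.58 CPM in those kept. KI replicate 3 was kept with 191 CPM of airway epithelium markers. For Plch2, a phospholipase C gene 684 kb away, WT replicate 5 had 11.7 CPM and the other WT libraries 0.282 to 0.685 CPM, beside 0.391 to 1.22 CPM in KI. The difference of -1.77 ± 0.83 turned to 0.73 without that library (adjusted p = 0.384). With adipocyte and skeletal muscle scores as covariates, no neighbour was called on regular water, beside 0.549% of all genes. Whether the other-tissue RNA of WT replicate 5 as a whole sets these values was not tested.

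On BAPN, the neighbours with the largest differences at 5 CPM or more were Prxl2b and Fndc10, higher in knock-in, and Ccnl2, Isg15 and Agrn, lower in knock-in. None was called. The adjusted p was 0.656 for Isg15, described further on with its 1 high library, and 0.243 to 0.250 for the other 4. Prxl2b, a reductase gene that makes prostaglandin F and lies 842 kb from Atad3a, ran from 3.75 over 7.23 to 10.3 CPM in WT-BAPN. The KI-BAPN libraries 1 to 6 had 10.99, 19.9, 43.5, 5.57, 9.37 and 21.05 CPM. Replicates 2, 3 and 6 held the high values and the other 3 libraries overlapped with wild type or stood just above it. The difference was 1.32 ± 0.39, and on regular water 0.31 ± 0.42, where WT ran from 6.08 over 6.84 to 21.8 CPM and KI had 6.72, 12.5, 8.70, 11.4 and 18.98 CPM.

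Fndc10, a gene for a fibronectin type III domain protein 44.2 kb from Atad3a, ran from 4.31 over 4.79 to 6.44 CPM in WT-BAPN, and its KI-BAPN libraries 1 to 6 had 8.10, 12.0, 16.5, 4.59, 5.54 and 8.90 CPM. On regular water the ranges were 3.75 to 6.03 CPM in WT and 4.95 to 5.74 CPM in KI. So 4 of 6 KI-BAPN libraries lay above every other library of the study, and 2 lay within the wild-type range. The difference was 0.87 ± 0.22 on BAPN (adjusted p = 0.243) and 0.09 ± 0.25 on regular water. The difference between these differences, the interaction of genotype and BAPN, was 0.77 ± 0.33 (adjusted p = 0.307).

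Ccnl2, a cyclin of nuclear speckles that acts in splicing and lies 51.4 kb away, ran from 122 over 367 to 455 CPM in WT-BAPN and from 99.1 over 163 to 283 CPM in KI-BAPN. On regular water it had 164 to 239 CPM in WT and 326, 291, 234, 171 and 226 CPM in KI. Wild type on BAPN was thus the highest group and its lowest library was replicate 7. The difference was -0.76 ± 0.26 on BAPN (adjusted p = 0.250) and 0.35 ± 0.27 on regular water, and the interaction -1.11 ± 0.37 (adjusted p = 0.280). Agrn, which encodes the basement membrane proteoglycan agrin, lies 404 kb away. It ran from 113 over 198 to 277 CPM in WT-BAPN, from 62.4 over 117 to 188 CPM in KI-BAPN and from 72.4 over 121 to 161 CPM in WT, and the KI libraries had 201, 169, 169, 125 and 95.6 CPM. Its differences were -0.73 ± 0.24 on BAPN (adjusted p = 0.250) and 0.36 ± 0.26 on regular water, with an interaction of -1.09 ± 0.36 (adjusted p = 0.280).

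For the interaction, edgeR and limma voom called 0 of 44 neighbours, and DESeq2 called 0 of the 42 for which it gave an adjusted p. The shares of all genes were 0% by edgeR, 0.0646% by DESeq2 and 0.0281% by limma voom. At an unadjusted p under 0.05 there were 5 (11.4%), namely Ccnl2, Agrn, Plekhn1, Fndc10 and Gm10563, beside 14.8% of all genes. Gm10563 is a short gene model of 237 counted bases that overlaps Cdk11b and Slc35e2 on the other strand, and it had at most 1.58 CPM in any library. Whether its counted bases fall on exons of these genes was not checked, so part of its reads may belong to them.

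**Figure D4:**
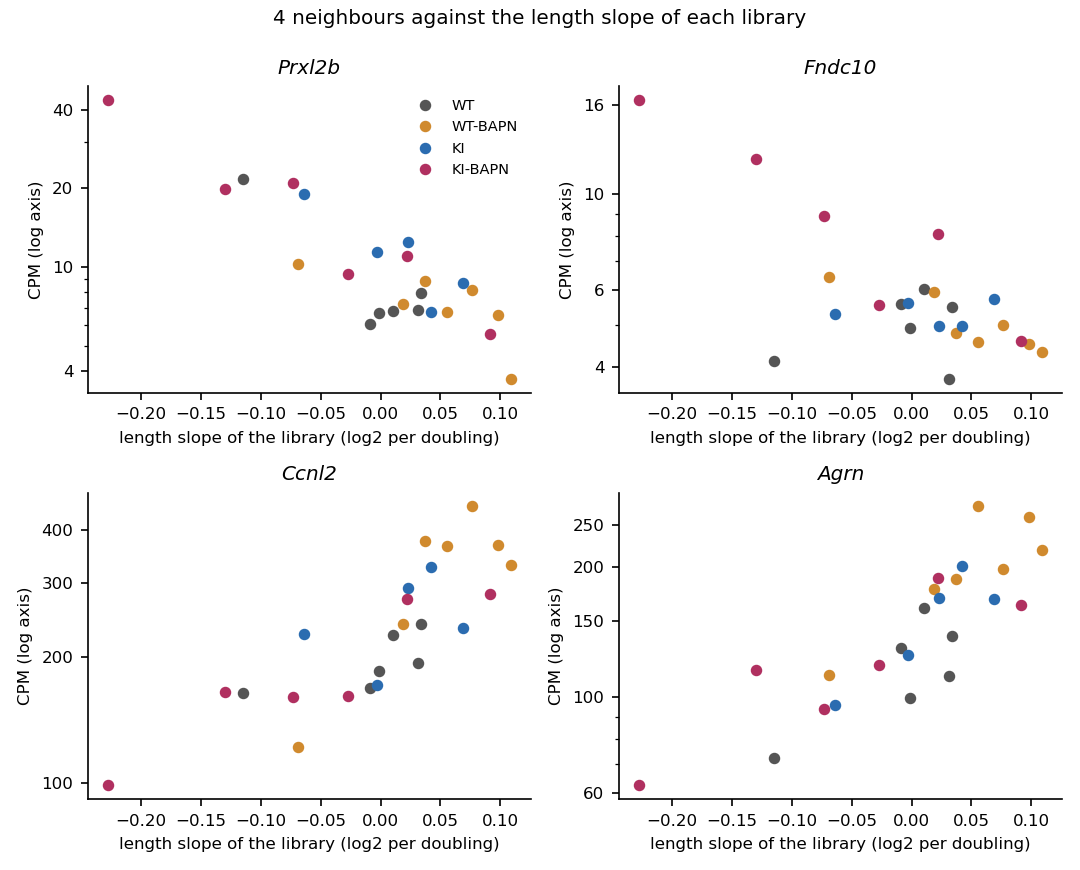
CPM (log axis) of Prxl2b, Fndc10, Ccnl2 and Agrn against the length slope of the library (log2 CPM per doubling of gene length), 1 point per library of the 4 groups. KI-BAPN replicate 3, at a slope of -0.228, has the highest Prxl2b and Fndc10 and the lowest Ccnl2 and Agrn of all 24 libraries.

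In KI-BAPN the 3 libraries with the lowest length slopes, replicates 2, 3 and 6, had the highest Prxl2b and Fndc10, the lowest Agrn and 3 of the 4 lowest values of Ccnl2. The lowest slopes of the other groups were -0.115 in WT replicate 5, -0.069 in WT-BAPN replicate 7 and -0.064 in KI replicate 5. Their Fndc10 levels were 4.12, 6.44 and 5.28 CPM, and only the 6.44 CPM was the highest of its group. Their Prxl2b levels were 21.8, 10.3 and 18.98 CPM, each the highest of its group. Prxl2b and Fndc10 have short gene models (1027 and 2140 bases), and Ccnl2 and Agrn longer ones (5278 and 9285 bases). The order was the reverse in Sdf4, a long gene model (6115 bases) at 0.42 on BAPN. Its highest KI-BAPN levels were in replicates 2 and 3 (371 and 424 CPM). It was also the reverse in Isg15, a short one (703 bases) at -0.76, with 106 CPM in WT-BAPN replicate 2. With the length slope as a covariate, the differences on BAPN were 0.15 for Prxl2b, 0.39 for Fndc10, -0.27 for Ccnl2 and -0.21 for Agrn, with adjusted p of 0.932 to 0.996. The interactions of Ccnl2 and Agrn were then -0.51 and -0.44. Without KI-BAPN replicates 2, 3 and 6, the differences on BAPN were 0.23, 0.26, -0.43 and -0.39. Leaving out KI-BAPN replicate 3 alone gave 0.86, 0.62, -0.63 and -0.59. The same 3 libraries had the highest sums of mesothelium markers in KI-BAPN (5 of 5 tested), 49.1 to 155 CPM, against 0.158 to 1.16 CPM in the other 3. In WT-BAPN the sums ran from 0.354 to 162 CPM, in WT from 0.783 to 452 CPM and in KI from 0.629 to 30.3 CPM. Of the 13 marker lists, macrophage and endothelium also separated these 3 libraries from the other 3 upward, and sympathetic neuron downward. Macrophage markers (5 of 5 tested) summed to 179 to 1033 CPM against 92.9 to 102 CPM, and ran from 45.5 to 390 CPM in WT-BAPN, 26.7 to 495 CPM in WT and 29.8 to 109 CPM in KI. Endothelium markers (5 of 5) summed to 547 to 663 CPM against 361 to 407 CPM, beside 175 to 729 CPM in WT-BAPN, 245 to 1024 CPM in WT and 307 to 1128 CPM in KI. Sympathetic neuron markers (5 of 5) summed to 2.86 to 3.496 CPM against 3.75 to 15.03 CPM, beside 4.26 to 8.84 CPM in WT-BAPN, 3.38 to 15.5 CPM in WT and 3.43 to 1348 CPM in KI. No marker of these 4 lists was at 0 throughout a group. KI-BAPN replicate 3 also had the lowest smooth muscle sum of its group, 10148 CPM, and the highest adipocyte and erythroid sums, 2623 and 3402 CPM. The part of macrophage, endothelial, neuronal or erythroid RNA in these differences was not tested. With adipocyte and skeletal muscle scores as covariates, the only gene called on BAPN was Atad3a (0.00703% of all genes). How large the adipocyte part of each difference is was not tested. With the mesothelium score as a covariate the differences on BAPN were 1.12, 0.83, -0.80 and -0.82. The slope was computed from the same counts and differs between the groups, and its source was not tested.

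Averaged over treatments, the smallest p among neighbours at 5 CPM or more belonged to Pusl1, Fndc10, Prxl2b, 9430015G10Rik and Pex10, and all of them missed the threshold. Pusl1, 127 kb from Atad3a, ran from 6.23 over 9.97 to 13.3 CPM in WT and from 8.77 over 10.7 to 12.2 CPM in WT-BAPN. The KI libraries had 9.32, 7.97, 7.57, 8.42 and 8.03 CPM, and KI-BAPN ran from 5.70 over 7.81 to 9.57 CPM. Knock-in medians were lower in both treatments and the groups overlapped in each. The averaged difference was -0.33 ± 0.11 (adjusted p = 0.168), -0.38 without WT replicate 5 (adjusted p = 0.0473) and -0.35 by limma voom (adjusted p = 0.0441). Pusl1 overlaps the end of Ints11 on the other strand, so part of its reads may belong to Ints11.

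Prxl2b had an averaged difference of 0.82 ± 0.29 (adjusted p = 0.180), which came to 1.04 without WT replicate 5 (adjusted p = 0.0433) and to 0.27 without KI-BAPN replicates 2, 3 and 6 (adjusted p = 0.735). Its end overlaps that of Mmel1, which had at most 3 counts in a library. The uncharacterised gene 9430015G10Rik, 349 kb from Atad3a, had 12.4 to 16.01 CPM in WT, 10.6 to 13.8 CPM in KI, 13.5 to 20.1 CPM in WT-BAPN and 5.86 to 15.2 CPM in KI-BAPN, an averaged difference of -0.33 ± 0.12 (adjusted p = 0.185). Pex10, a ubiquitin ligase for import into peroxisomes 668 kb away, had 7.51 to 10.9 CPM in WT and 9.39, 9.73, 12.8, 11.7 and 13.7 CPM in KI. On BAPN it ran from 7.26 over 8.28 to 9.51 CPM in wild type and from 6.57 over 10.1 to 12.8 CPM in knock-in, and the averaged difference was 0.28 ± 0.11 (adjusted p = 0.210).

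BAPN itself called no neighbour by edgeR in either genotype. In WT this was 0 of 44 neighbours beside 6.14% of all genes, with 10 at an unadjusted p under 0.05 (22.7%, beside 25% of all genes). In KI it was 0 of 44 beside 0.0352%, with 1 at an unadjusted p under 0.05, Fndc10, beside 10.1% of all genes. In WT, DESeq2 called 4 neighbours, Tmem52, Isg15, Agrn and Plekhn1 (10.7% of all genes), and limma voom called 13 (29.7%). No neighbour's BAPN and water libraries lay apart in either genotype, beside 2.12% of all genes in WT and 0.647% in KI. In KI both tools called 0, beside 1.42% of all genes by DESeq2 and 0% by limma voom. Agrn was higher on BAPN in WT by 0.79 ± 0.25 (adjusted p = 0.0562) and Ccnl2 by 0.72 ± 0.25 (adjusted p = 0.0865). Plekhn1, a gene for a pleckstrin homology domain protein 460 kb away, was higher by 1.08 ± 0.35 (adjusted p = 0.0637), from 8.64 over 14.2 to 18.5 CPM in WT to 13.1 over 30.2 to 39.0 CPM in WT-BAPN. In KI the changes were -0.30 ± 0.26 for Agrn, -0.39 ± 0.27 for Ccnl2 and -0.12 ± 0.37 for Plekhn1.

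Isg15, an interferon-induced ubiquitin-like modifier 438 kb from Atad3a, had 3.31 to 10.1 CPM in 6 of the 7 WT-BAPN libraries and 106 CPM in replicate 2. The WT libraries ran from 8.50 over 10.6 to 24.0 CPM and the KI libraries had 5.97, 11.1, 4.89, 18.3 and 8.33 CPM. The genotype difference was -0.40 ± 0.77 on regular water and -0.76 ± 0.71 on BAPN, and without WT-BAPN replicate 2 the latter was 1.16 in the other direction (adjusted p = 0.313).

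Several neighbours are placed head to head, so that a short stretch of DNA separates the starts of genes on opposite strands. The sequences of 4 such stretches are shown because one region then serves as upstream DNA of both genes. They come from the RefSeq promoter table for GRCm38.p6, which held 45 of the 54 genes, and are written for the plus strand with each CpG dinucleotide in capitals. The deposited coordinates of the genes lie 84457 bases higher than those of GRCm38 for 50 of the 53 genes that could be matched, so positions of sequences and positions of genes in the table are on different scales.
Rer1 and Morn1, chr4:155086354-155086576: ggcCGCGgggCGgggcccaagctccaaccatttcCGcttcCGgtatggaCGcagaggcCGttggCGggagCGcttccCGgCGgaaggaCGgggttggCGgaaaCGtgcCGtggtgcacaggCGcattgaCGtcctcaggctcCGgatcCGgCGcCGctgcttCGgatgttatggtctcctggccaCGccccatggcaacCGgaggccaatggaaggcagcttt
Cptp and Ints11, chr4:155869441-155869566: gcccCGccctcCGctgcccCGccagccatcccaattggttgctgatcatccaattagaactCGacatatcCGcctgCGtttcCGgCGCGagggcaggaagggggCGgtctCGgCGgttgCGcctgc
Pusl1 and Acap3, chr4:155891763-155891874: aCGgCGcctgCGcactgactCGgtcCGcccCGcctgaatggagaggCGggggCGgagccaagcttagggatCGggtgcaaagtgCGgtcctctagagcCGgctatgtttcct
B3galt6 and Sdf4, chr4:155992679-155992842: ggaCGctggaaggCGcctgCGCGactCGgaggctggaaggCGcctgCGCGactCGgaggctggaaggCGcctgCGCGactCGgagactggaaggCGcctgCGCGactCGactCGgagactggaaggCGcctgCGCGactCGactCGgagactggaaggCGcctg

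The stretches are 223, 126, 112 and 164 bases long and hold 24, 13, 11 and 24 CpG. No gene of these pairs was called in either treatment. On regular water Rer1 and Morn1 stood at -0.29 ± 0.17 and -0.04 ± 0.25, and Cptp, a ceramide-1-phosphate transfer protein, and Ints11 at 0.11 ± 0.17 and 0.01 ± 0.14. Pusl1 and Acap3, a GTPase-activating protein for Arf, were at -0.26 ± 0.16 and -0.37 ± 0.18 on regular water and -0.40 ± 0.15 and -0.17 ± 0.16 on BAPN, lower in knock-in in all 4 values with no call. B3galt6, which builds the linker of glycosaminoglycan chains, and Sdf4 were at -0.09 ± 0.21 and -0.26 ± 0.25 on regular water and -0.04 ± 0.20 and 0.42 ± 0.23 on BAPN.

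The 250 bases before the start of 3 further genes are shown, Ssu72 as the closest neighbour with a sequence, and Ccnl2 and Agrn as those with the largest interactions at 100 CPM or more. They are written in the direction of the gene, from the same table, with CpG in capitals, and hold 10, 27 and 35 CpG.
Ssu72, plus strand, chr4:155704565-155704814: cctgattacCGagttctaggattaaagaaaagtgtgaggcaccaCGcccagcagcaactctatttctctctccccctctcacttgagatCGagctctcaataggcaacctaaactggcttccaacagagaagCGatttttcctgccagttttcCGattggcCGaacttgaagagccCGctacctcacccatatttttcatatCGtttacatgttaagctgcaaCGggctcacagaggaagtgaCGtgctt
Ccnl2, plus strand, chr4:155812239-155812488: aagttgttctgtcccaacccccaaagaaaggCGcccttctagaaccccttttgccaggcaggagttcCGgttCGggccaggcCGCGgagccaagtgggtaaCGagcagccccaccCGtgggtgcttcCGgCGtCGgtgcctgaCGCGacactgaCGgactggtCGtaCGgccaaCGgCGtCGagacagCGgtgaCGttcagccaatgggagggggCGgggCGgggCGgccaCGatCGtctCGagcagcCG
Agrn, minus strand, chr4:156197489-156197738: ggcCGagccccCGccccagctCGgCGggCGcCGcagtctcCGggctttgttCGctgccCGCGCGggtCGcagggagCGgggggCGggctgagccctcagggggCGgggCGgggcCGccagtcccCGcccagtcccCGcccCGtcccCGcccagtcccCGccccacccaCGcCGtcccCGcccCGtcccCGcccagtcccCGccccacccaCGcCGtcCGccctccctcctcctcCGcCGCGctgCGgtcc

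The CpG content of the promoters differed between tested and untested genes of the region. In the 250 bases before the start, the median was 17 CpG over the 45 genes with a sequence, 19 over the 37 of these that were tested, 2.5 over the 8 that were not and 6 over the 27025 genes of the table. At least 20 CpG were found in 40% of the 45 and in 17.7% of all. The letters TATAAA, searched on both strands, occurred in 1 of 45 windows (2.2%) and in 13% of all, and CCAAT on both strands in 15 (33.3%) and in 34.5%. Tested genes were chosen by having counts, so their CpG content is given as a description.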

How the data were processed

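RNA-seq read counts per gene of 24 mouse aorta libraries were used. The deposited table holds raw counts made by the authors, with gene positions and lengths. The submitters' processing notes name GRCm38 and mm10 as builds and list HISAT2, Trim Galore, FastQC and DESeq2. Which program counted reads, with which strand setting and versions, is not given in the sources used here. Of 53 matched genes, 50 have deposited positions that lie 84457 bases above GENCODE M21 (GRCm38), and 0 match it exactly, so order and distances were used and the positions are the deposited table's own. Count columns left unmatched to a sample numbered 0.

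A model with 1 mean for each group was fitted to the 24 libraries in edgeR 4.0.16 (R 4.3.3), after filterByExpr on the groups and TMM scaling (factors 0.841 to 1.18). Genes were tested with its robust quasi-likelihood F test. P-values were adjusted by Benjamini-Hochberg over 14216 genes. Confidence intervals are at 95%. Gaps run between gene bodies. Genes within 1 Mb of the Atad3a start were taken, and 3 genes of that window are not reported here. CPM use the TMM factors, and marker scores are mean log2 CPM with a prior count of 2. Totals per library set the precision, and intervals from replicates include it. The steps were tested on simulated data.

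Named genes are Atad3a, the 4 nearest tested neighbours on each side and, at 5 CPM or more, up to 4 further with the smallest p averaged over treatment. Agrn, Plekhn1, Isg15, Gm10563, Tmem52, Plch2, Rer1, Cfap74, Prkcz, Ube2j2, Slc35e2, the head-to-head pairs and the examples of role groups were named after their values were seen. The members and lists were chosen with earlier results of these data known. Marker lists were made for 13 tissues and cell types. Within groups, no pair of columns was identical and chi-square per degree of freedom was at least 30.8. The alternatives tried were DESeq2 1.42.0, limma 3.58.1 (voom with quality weights), other size factors, filters, samples, covariates and thresholds, a replicate block and each library left out. The mesothelium score, the length slope and the fit without KI-BAPN replicates 2, 3 and 6 were chosen after seeing the data. Figures were drawn with matplotlib 3.10.9.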

Additional observations from a re-analysis of the deposited data

Results flagged for a closer look

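Levels of 39 genes of the region that are named in this report were searched in each of the 4 groups. Dixon's test at the 95% level looked for a library far from the rest of its group. Of 156 combinations of gene and group, 17 (10.9%) held one. Of these, 10 lay in WT replicate 5 and 3 in WT-BAPN replicate 7. Many of the genes were named after their values were seen, and all share the same libraries. The usual chance of about 1 in 20 is therefore no reference for this share.

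WT replicate 5 was the highest of its group for Prxl2b with 21.8 CPM (others 6.08 to 7.96), Plch2 with 11.7 CPM (others 0.282 to 0.685), Vwa1 with 71.6 CPM (others 17.9 to 35.5), Tmem88b with 1.66 CPM (others 0.184 to 0.416), Isg15 with 24.0 CPM (others 8.50 to 14.01) and Morn1 with 4.40 CPM (others 1.90 to 2.81). It was also the highest for Cfap74 with 12.5 CPM (others 0.9496 to 1.62), Prkcz with 12.5 CPM (others 0.685 to 2.26), Tnfrsf4 with 12.4 CPM (others 0.829 to 1.80) and Tnfrsf18 with 3.37 CPM (others 0.230 to 0.924). This library also had the highest sum of the WT group for 8 of the 13 marker lists (airway epithelium, skeletal muscle, cardiac muscle, adipocyte, Schwann cell, mesothelium, macrophage and T cell), and the part of that RNA in these values was not tested.

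WT-BAPN replicate 7 was the highest of its group for Rer1 with 231 CPM (others 98.9 to 137), Ssu72 with 46.2 CPM (others 21.3 to 28.2) and Vwa1 with 53.0 CPM (others 26.4 to 35.6). The other 4 were WT-BAPN replicate 2 for Isg15 (106 CPM, others 3.31 to 10.1), KI replicate 5 for Aurkaip1 (87.7 CPM, others 61.4 to 68.6) and for Nadk (157 CPM, others 85.01 to 97.3), and WT replicate 4 for Atad3a (61.4 CPM, others 30.2 to 41.0).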

How the results depend on the processing

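Counting Atad3a, 1 of 45 tested genes of the region was called between genotypes on regular water, on BAPN and in the average. The shares of all genes were 0.19%, 0.00703% and 0.211%. For the interaction and for BAPN within WT or KI the count was 0, beside 0%, 6.14% and 0.0352% of all genes. DESeq2 called 2 on regular water (3.45% of all genes) and limma voom 2 in the average (2.14%). For BAPN in WT the count was 4 with DESeq2 (beside 10.7% of all genes) and 13 with limma voom (29.7%). It was 1 with no filter, Ttll10 (5.11%), and 2 with only the groups compared (5.84%). Adipocyte and skeletal muscle scores gave 1 (9.24%), an adjusted p under 0.1 gave 5 (12.9%) and the mesothelium score gave 3 (7.57%). Without KI-BAPN replicates 2, 3 and 6 it was 2 (6.17%), and with the length slope 1 (4.47%). Leaving out each library in turn gave 1 to 3 in the average and 0 to 4 for BAPN in WT. The 3 came without WT replicate 5 (Atad3a, Prxl2b and Pusl1, beside 2.03% of all genes). The 4 came without WT-BAPN replicate 7 (Ccnl2, Agrn, Aurkaip1 and Plekhn1, beside 11.3% of all genes). The other 4 comparisons stayed at their counts. The cause was not tested.

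The labels do not say whether replicate numbers pair the libraries. The deviations of same-numbered libraries correlated at -0.369 to 0.348 (9 of 33 pairs over 0.1). Of 24 libraries, 2 correlated best with their own number. These values do not settle whether libraries were paired. With the replicate number as a block, 3 genes of the region were called for BAPN in WT, Ccnl2, Agrn and Plekhn1, beside 7.2% of all genes. In each genotype comparison 1 was called, Atad3a, beside 0.204% on regular water, 0.00703% on BAPN and 0.169% in the average. Of 4601 alternative values of the tested neighbours named in the text (the 3 genotype comparisons and, for some, the interaction and BAPN), 221 changed sign, none of them called. Another 35 were called where the main fit had no call, 30 of them outside the setting with an adjusted p under 0.1. The fit with only the groups compared is the same as the main one for the average and the interaction and was not run. With the gap taken between gene starts, the median within 100 kb was 0.13 on regular water (8 genes) and -0.13 on BAPN. Low counts limit Tmem88b, Tmem52, Gm10563 and the 9 genes left out of the main fit.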
